A study of Mus musculus with 27 samples.

Results

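The genes described here are nuclear genes for subunits of oxidative phosphorylation, 90 of the 26264 genes in the deposited table. They were chosen by symbol: every gene whose name starts with Nduf, Uqcr, Cox4, Cox5, Cox6, Cox7, Cox8 or Atp5, together with Sdha, Sdhb, Sdhc and Sdhd, and without the assembly factors named Ndufaf. RNA was sequenced from a block of cortex of each hemisphere of female 5xFAD mice on a C57BL6 background, 16 weeks old, killed 24 h after 500 nL had been injected into the parietal association cortex of 1 hemisphere. The injection held vehicle in 4 mice (8 libraries), R33 in 5 mice (9 libraries) or R55 in 5 mice (10 libraries), and the contralateral hemisphere of each mouse received nothing. R33 and R55 are small molecules made to stabilise the retromer, the complex that carries proteins out of endosomes, and the design asks what this stabilisation alters in a mouse model of amyloid pathology. The drugs were at 10 mM in saline with 20% sulfobutylether beta-cyclodextrin and 3% DMSO, and the vehicle was the same solution without drug. All groups, vehicle included, carry the 5xFAD transgenes, driven in neurons by the Thy1 promoter, so there is no wild-type group. Mice have labels of 1 letter (J, L, M for vehicle, K, N, O for R33, P, Q, R for R55) or 2 letters (AH for vehicle, AD and AE for R33, AA and AB for R55); mouse AE has an injected hemisphere only.

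Oxidative phosphorylation takes place in the inner membrane of mitochondria. Complex I takes electrons from NADH and complex II from succinate, complex III passes them to cytochrome c, complex IV passes them to oxygen, and ATP synthase makes ATP from the proton gradient that complexes I, III and IV build. Most subunits are encoded in the nucleus and the others in mitochondrial DNA, and in the cortex neurons spend much of this ATP on ion pumping and synaptic transmission.

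Values are the deposited FPKM, fragments counted for a gene per kilobase of its length with the library's fragment total set equal, so levels of different genes can be set side by side per length. Libraries held 15932197 to 38077027 fragments. Of the 90 members, 85 reached a mean of 1 FPKM over the 27 libraries and were tested, and 78 of these had at least 100 fragments in every library. The 5 below that minimum were Cox7c-ps1 (mean 0.585 FPKM), Cox7b2 (0.451 FPKM), Ndufa11b (0.161 FPKM), Ndufb4c (0.0201 FPKM) and the testis form Cox8c (0.00501 FPKM). Just above it were Cox8b (1.09 FPKM) and Ndufs5-ps (1.49 FPKM). The names Ndufs5-ps and Cox7c-ps1 mark pseudogenes of Ndufs5 and Cox7c, and how reads shared by such copies or by related isoforms were assigned is not given in the sources used here. None of the 13 subunit genes of mitochondrial DNA has a value in the table, so the members cannot be set beside them.

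The nuclear subunits were among the abundant RNAs of the block. The median tested member had a mean of 105 FPKM, against 9.32 FPKM for the median of the 12976 tested genes, and 45 of 85 members (52.9%) were above 100 FPKM, against 4.62% of tested genes. All members together took 0.967 to 1.66% of a library's fragments, with a median of 1.09%. Members are also short: the median length used for FPKM was 754 bp against 3149 bp over all tested genes, and 0 of 85 were longer than that median. GENCODE mouse release M39 places 88 of the 90 on GRCm39 (Atp5md and Atp5mpl were not matched), on 19 chromosomes, with 9 on chromosome 7 and 3 on X (Cox7b, Ndufa1 and Ndufb11).

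Levels stepped up from complex I to ATP synthase. Complex I has 40 members here, 38 of them tested, with a median of 86.0 FPKM; the accessory subunit Ndufb9 was highest, at 260 FPKM (chr15:58805594-58814819, plus strand). Complex II, the enzyme of the citric acid cycle that also feeds the chain, had a median of 100 FPKM over its 4 genes, from 61.9 FPKM for the membrane anchor Sdhd to 164 FPKM for the flavoprotein Sdha (chr13:74469359-74498436, minus strand). Complex III had a median of 123 FPKM over its 8 members here, led by the hinge protein Uqcrh at 266 FPKM (chr4:115923314-115932296, minus strand). Of the tested members of these 3 complexes, only Ndufs5-ps was below 5 FPKM.

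Complex IV had the widest spread. Its 18 tested genes had a median of 158 FPKM and ran from 1.09 FPKM (Cox8b) to 657 FPKM (Cox6a1, chr5:115483701-115487050, minus strand), with 5 genes below 5 FPKM. ATP synthase had a median of 193 FPKM over 17 genes, with the catalytic beta subunit Atp5b highest of all members at 669 FPKM (chr10:127919132-127926261, plus strand). Its c ring is built from 1 protein that 3 genes encode, and the RNA of Atp5g3 was the most abundant of these at 301 FPKM, with Atp5g1 at 55.5 FPKM and Atp5g2 at 12.7 FPKM.

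The low end of complex IV is made of isoforms known from other tissues or conditions. Cox4i1 averaged 642 FPKM and Cox4i2, an isoform of lung and of low oxygen, 2.62 FPKM, a ratio of 245. Cox6a1 stood 45.3 times above Cox6a2, the heart and skeletal muscle form (657 against 14.5 FPKM), and Cox7a2 stood 42.8 times above the muscle form Cox7a1 (161 against 3.75 FPKM). In each of these pairs the form known from brain and liver was the abundant one in every library.

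The other pairs were as uneven. Cox6b1 averaged 374 FPKM and the testis form Cox6b2 3 FPKM, a ratio of 125. Cox8a averaged 616 FPKM and the muscle form Cox8b 1.09 FPKM, a ratio of 563 that rests on a median of 6 fragments for Cox8b. Ndufa4, now counted as a complex IV subunit, averaged 433 FPKM and its relative Ndufa4l2, known as a target of hypoxia signalling, 3.24 FPKM, a ratio of 133. The lowest ratio in any library was 31.8, for the Cox7a pair.

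**Figure D1:**
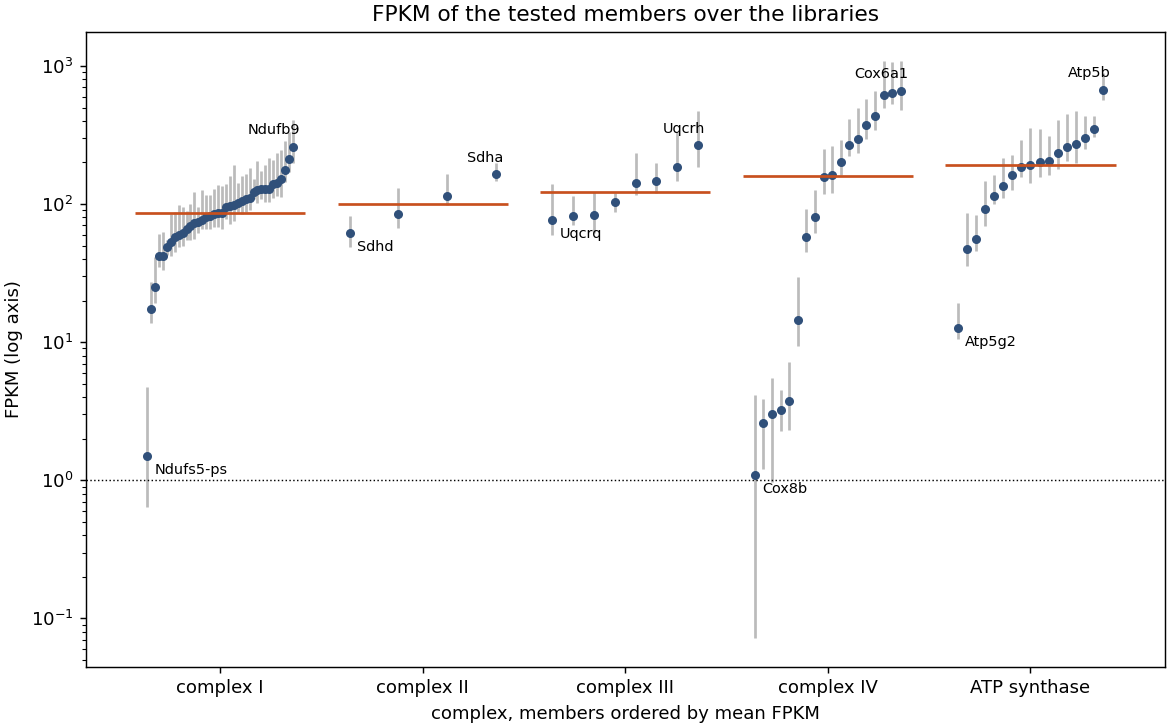
Mean FPKM (points, log axis) of the 85 tested members over 27 libraries, ordered within each complex, with grey lines from the lowest to the highest library, orange bars at the median of each complex and a dotted line at 1 FPKM. The medians step from 86.0 FPKM in complex I to 193 FPKM in ATP synthase, and the low isoforms of complex IV stand apart.

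Promoters of some members are shown as a description. Whether their letters have a part in the members' levels was not tested. RefSeq windows on build GRCm38.p6, from 250 bases before to 50 after each start, were matched by symbol and gene ID for 70 of the 90 members (75 windows, 5 members with 2). The other 20 had no window there. The search covered 4 exact motifs on both strands: GCGCATGCG for NRF1, CCGGAAGT for GABP, AAGATGGC for YY1 and TGACGTCA for the cyclic AMP response element. At least 1 of them was found in 25 of the 70 members (35.7%), against 10.6% of all 27025 genes with a window. Those genes were not limited to genes with RNA here, and no share was counted for expressed genes alone.

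By window, the NRF1 letters were in 10.7% of the members' windows and 1.75% of all 32851 windows, and the YY1 letters in 13.3% and 2.75%. The GABP letters were in 6.67% of the members' windows and 3.89% of all, and the cyclic AMP response element in 5.33% and 1.79%. YY1 letters were found in 10 members (Atp5j, Atp5j2, Atp5pb, Ndufa3, Ndufa9, Ndufb8, Ndufc1, Ndufs4, Ndufs6 and Ndufs7) and lay after the start in 8 of them (in 41.3% of all windows with these letters). NRF1 letters were found in 8 (Atp5g2, Atp5k, Atp5l, Cox6a1, Ndufa11, Ndufa8, Uqcr11 and Uqcrc1), GABP letters in 5 (Atp5h, Cox8a, Ndufs3, Uqcr11 and Uqcrh) and the cyclic AMP element in 4 (Ndufa10, Ndufa11, Ndufb2 and Uqcrfs1). Only Ndufa11 and Uqcr11 held 2 different motifs, and in neither do they overlap. These matches describe letters, not binding.

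The 250 bases before the start are printed for 6 members that carry a match there, 5 prime to 3 prime on the strand of the gene, with the matches in capitals. Uqcrh (chr4:116075071-116075320, minus strand) and Atp5h (chr11:115419920-115420169, minus) carry the GABP letters in reverse complement. Cox6a1 (chr5:115348959-115349208, minus) and Atp5k (chr5:108434400-108434649, minus) carry the NRF1 letters on both strands, overlapping by all but 1 base. Ndufa11 (chr17:56717512-56717761, plus) carries the cyclic AMP element and then the NRF1 letters, and Uqcrfs1 (chr13:30545317-30545566, minus) the cyclic AMP element.
Uqcrh: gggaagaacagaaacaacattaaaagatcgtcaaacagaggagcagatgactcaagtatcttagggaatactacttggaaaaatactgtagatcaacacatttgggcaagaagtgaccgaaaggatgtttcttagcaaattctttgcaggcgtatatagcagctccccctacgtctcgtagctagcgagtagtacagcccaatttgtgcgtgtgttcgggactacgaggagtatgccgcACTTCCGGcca
Atp5h: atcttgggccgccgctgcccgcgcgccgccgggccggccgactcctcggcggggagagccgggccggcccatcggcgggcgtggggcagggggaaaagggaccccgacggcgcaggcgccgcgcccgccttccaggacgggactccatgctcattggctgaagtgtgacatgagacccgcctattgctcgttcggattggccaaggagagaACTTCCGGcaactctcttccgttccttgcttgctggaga
Cox6a1: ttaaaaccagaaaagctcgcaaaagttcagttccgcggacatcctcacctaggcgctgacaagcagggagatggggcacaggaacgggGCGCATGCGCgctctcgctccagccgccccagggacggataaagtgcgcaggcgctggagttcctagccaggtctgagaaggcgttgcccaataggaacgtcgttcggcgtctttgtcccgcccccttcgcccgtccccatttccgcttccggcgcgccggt
Atp5k: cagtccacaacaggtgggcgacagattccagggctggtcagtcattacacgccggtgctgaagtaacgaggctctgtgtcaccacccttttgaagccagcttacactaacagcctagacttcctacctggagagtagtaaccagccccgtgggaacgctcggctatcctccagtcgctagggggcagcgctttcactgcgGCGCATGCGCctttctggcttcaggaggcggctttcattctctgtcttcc
Ndufa11: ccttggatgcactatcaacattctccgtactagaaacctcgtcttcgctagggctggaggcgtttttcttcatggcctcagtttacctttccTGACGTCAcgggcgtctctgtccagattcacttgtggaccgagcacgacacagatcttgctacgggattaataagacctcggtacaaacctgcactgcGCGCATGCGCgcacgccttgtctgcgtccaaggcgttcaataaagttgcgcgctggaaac
Uqcrfs1: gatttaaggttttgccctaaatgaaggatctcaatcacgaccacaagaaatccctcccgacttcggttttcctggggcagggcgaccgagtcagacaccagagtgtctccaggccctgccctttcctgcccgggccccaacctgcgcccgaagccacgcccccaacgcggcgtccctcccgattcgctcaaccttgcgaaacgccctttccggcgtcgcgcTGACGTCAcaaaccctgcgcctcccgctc

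Members differed among themselves in how far they ranged over libraries. The smallest ranges were mostly those of core subunits: the highest library of Ndufs1, the largest iron-sulfur subunit of complex I (2927 bp), was 1.27 times the lowest, of Sdha (2859 bp) 1.35 times, of the complex III core protein Uqcrc2 (1882 bp) 1.37 times, of the accessory subunit Ndufa10 (1209 bp) 1.38 times and of the alpha subunit Atp5a1 (2431 bp) 1.41 times. Other long members ranged further, with 2.14 times for Ndufa11 (2661 bp), 1.98 times for Ndufab1 (2189 bp) and 1.91 times for Ndufb8 (2332 bp). Some short accessory subunits had wide ranges, with 2.56 times for Uqcrh (546 bp), 2.54 times for Ndufa2 (602 bp) and 2.47 times for the epsilon subunit Atp5e (414 bp). By length, the median ratio of highest to lowest library was 2.18 for the 15 members under 500 bp and 1.66 for the 6 members of 2000 bp or more, against 5.35 and 1.70 for all tested genes under 500 bp and from 2000 to 3000 bp. By class medians, members and all tested genes thus both ranged less with length up to 2000 bp.

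Members mostly lay on the same side in a library. For each library the deviation of a member is its log2 value (of FPKM with 1 added) minus its own mean over the 27 libraries. Of the members, 74 of 85 (87.1%) were on the same side of their mean as the members' median in at least 20 of 27 libraries, against 13.3% of all tested genes. The exceptions were Ndufs1 (13 libraries), Cox4i2 and Ndufa4l2 (15 each), Cox8b and Sdha (16 each), Atp5a1 and Atp5b (18 each), and Atp5h, Cox7a1, Ndufs4 and Uqcrc2 (19 each). The members' median is set by the members themselves, so these shares are a description and no test. No such share was counted for other short genes alone.

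**Figure D2:**
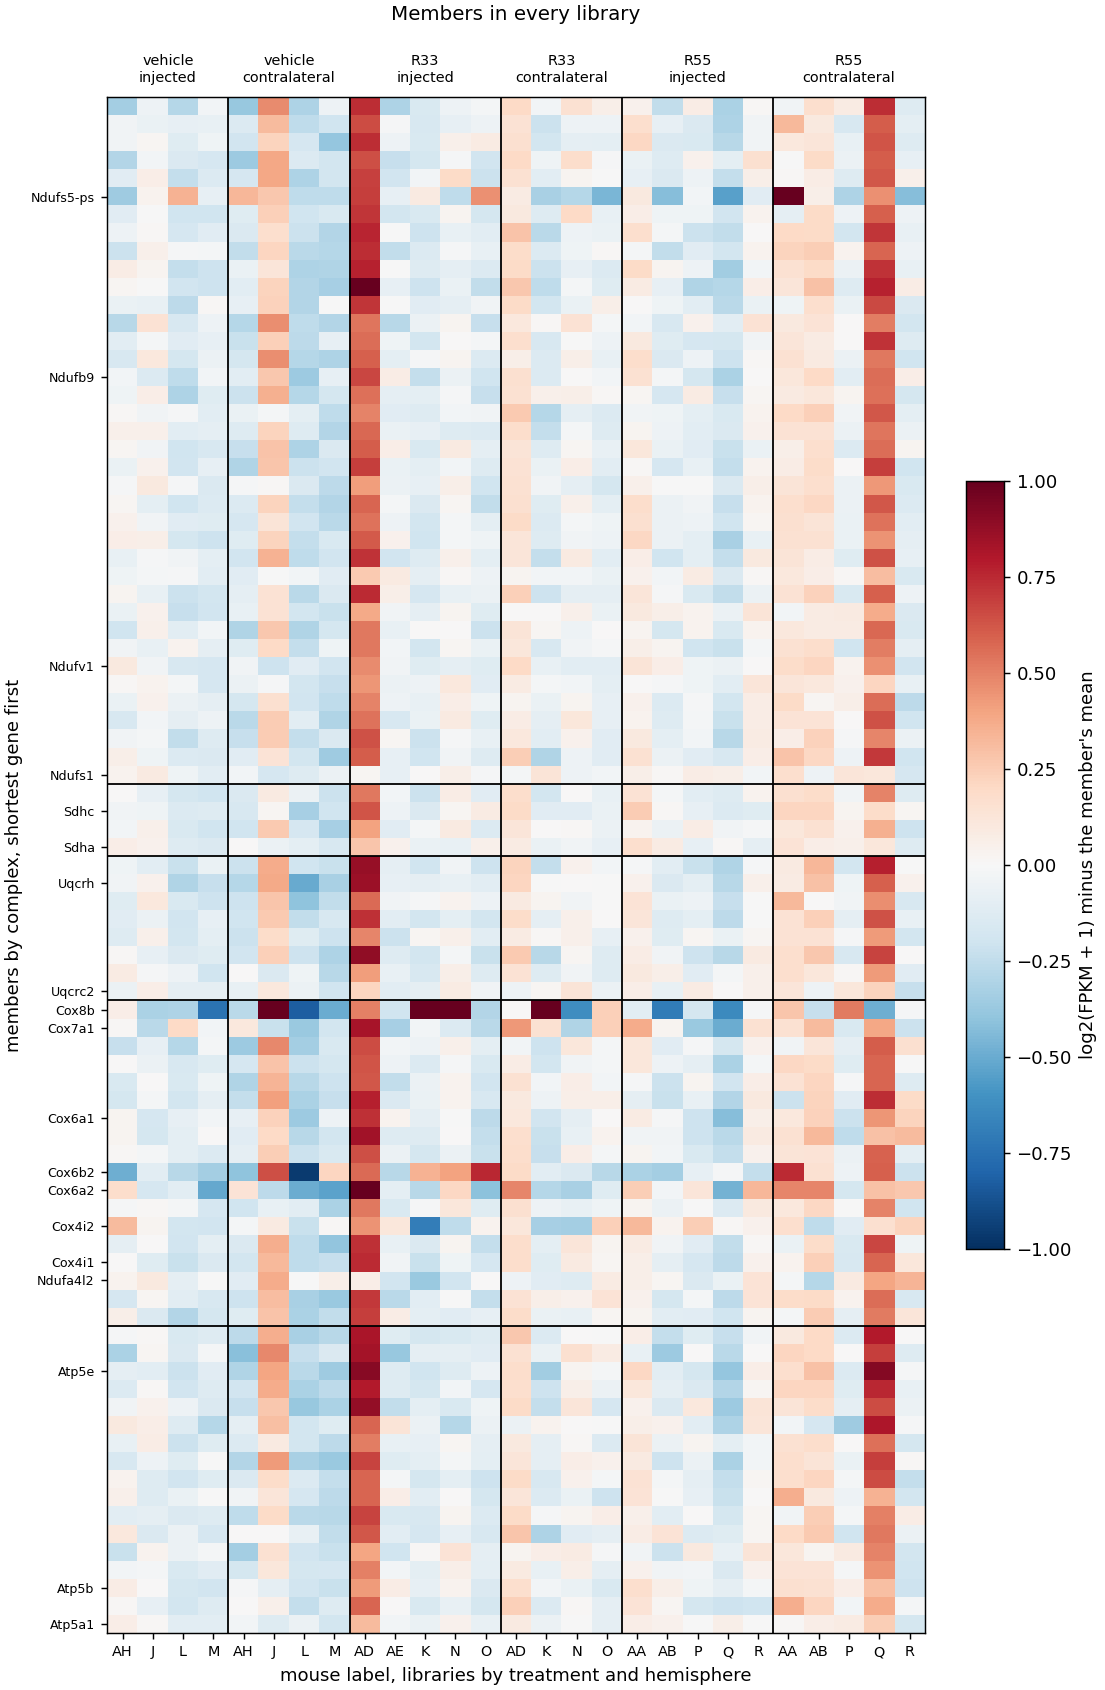
Log2 deviation of each of the 85 tested members from its own mean (colour) in 27 libraries, by treatment, hemisphere and mouse label, with members ordered by complex and then by length and some of them named. The injected hemisphere of mouse AD and the contralateral hemisphere of mouse Q are red in nearly all members, and Cox8b, Cox6b2, Cox6a2, Cox4i2 and Ndufs5-ps deviate widely in other libraries as well.

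A pair of libraries stood apart before any treatment was compared. In the injected hemisphere of the R33-treated mouse AD all 85 members were above their own mean, with a median deviation of 0.62, and in the contralateral hemisphere of the R55-treated mouse Q 84 of 85 were, with 0.56. The members took 1.66% of fragments in the first (95% Wilson interval, which covers counting error only, 1.66 to 1.66%) and 1.56% in the second (1.55 to 1.56%). The highest value of 62 members was in that AD library and of 19 in that Q library. At the other end, 0 of 85 members were above their mean in the contralateral hemisphere of vehicle mouse L, with a median of -0.24 and 0.973% of fragments (0.970 to 0.976%).

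Other genes moved with the members in these libraries. The 79 tested cytosolic ribosomal protein genes had a median deviation of 0.89 in AD injected and 0.54 in Q contralateral, the 78 mitochondrial ribosomal protein genes 0.43 and 0.44, and the 20 proteasome core genes 0.51 and 0.46. Over all tested genes under 500 bp the median deviation was 0.52 and 0.50, and over those of 5000 bp or more -0.26 and -0.21. The FPKM of all genes summed to 425001 and 403184 there, the highest of the 27 libraries, against a median of 341727 in vehicle, 341996 in R33 and 350770 in R55 libraries. Short genes were high and long genes low in both libraries, and the members are short. With each library's trend on gene length removed, the members' medians in the 2 libraries were 0.09 and 0.10, still the highest of the 27 libraries (the next was 0.06, N injected). What length had to do with these members' levels was not tested beyond that.

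Sums of cell type markers hide opposite values of single markers in AD injected. The 7 neuron markers, whose most abundant gene was Snap25 (1663 FPKM), summed to 3809 FPKM in AD injected and 3174 FPKM in Q contralateral, within a range of 2879 to 4387 FPKM over the 27 libraries. Oligodendrocyte markers summed to 1272 and 1651 FPKM, within 553 to 2641 FPKM. In AD injected the astrocyte genes Gfap (626 FPKM, median 227) and Aldh1l1 (50 FPKM, median 30.4), the microglial Trem2 (72.6 FPKM, median 53.7) and the smooth muscle gene Acta2 (7.93 FPKM, median 4.48) were at their highest of all libraries. At their lowest were the neuronal Syt1 (245 FPKM, median 362), the astrocyte transporter Slc1a2 (75.4 FPKM, median 324), the oligodendrocyte gene Mag (36.7 FPKM, median 80) and the vessel genes Flt1, Slco1a4, Pdgfrb and Rgs5. Of these, Flt1 and Slco1a4 were low in every library of 2-letter mice (1.72 to 4.53 and 4.67 to 7.25 FPKM). In 1-letter mice they were 4.58 to 14.4 and 8.26 to 20.9 FPKM. The endothelial markers summed to 49.2 FPKM in AD injected, within the 33.2 to 50 FPKM of 2-letter mice. So markers of the same cell type went both ways there: the microglial Csf1r (39.4 FPKM, median 53.8) and Cx3cr1 (30.3 FPKM, median 34.8) and the astrocyte genes Gja1 (43.2 FPKM, median 73.7) and Aqp4 (20.7 FPKM, median 26.2) were also below their medians. The oligodendrocyte precursor markers had their lowest sum there (4.37 FPKM, median 9.26). The red blood cell gene Alas2 had its highest value there (8.17 FPKM, median 1.94), and the globin genes Hba-a1 and Hbb-bs are listed at 0 in every library, which sets no bound on their RNA since the counting of near copies is not given. In Q contralateral Gfap (253 FPKM), Slc1a2 (266 FPKM) and Trem2 (51.5 FPKM) were inside their ranges. These markers were picked after their values were seen, and their part in the members' values was not tested. In such tissue blocks, fewer cells of a type and less RNA per cell cannot be told apart.

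By treatment and hemisphere the library medians overlapped widely. Vehicle mice had deviations of -0.15, -0.12, -0.03 and -0.01 in the injected hemisphere (L, M, AH, J) and -0.24, -0.22, -0.16 and 0.23 in the contralateral (L, M, AH, J). R33 mice had -0.12, -0.12, -0.08, -0.01 and 0.62 injected (K, O, AE, N, AD) and -0.11, -0.05, 0.00 and 0.15 contralateral (K, O, N, AD). R55 mice had -0.22, -0.08, -0.06, 0.03 and 0.07 injected (Q, P, AB, R, AA) and -0.10, -0.05, 0.14, 0.17 and 0.56 contralateral (R, P, AA, AB, Q). Only the R55 contralateral group had its median above 0, at 0.14, and each group's range reached into every other group's. As means of each mouse's hemispheres, vehicle mice were at -0.09 ± 0.14 (SD, n = 4), R33 mice at 0.02 ± 0.21 (SD, n = 5) and R55 mice at 0.05 ± 0.10 (SD, n = 5).

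**Figure D3:**
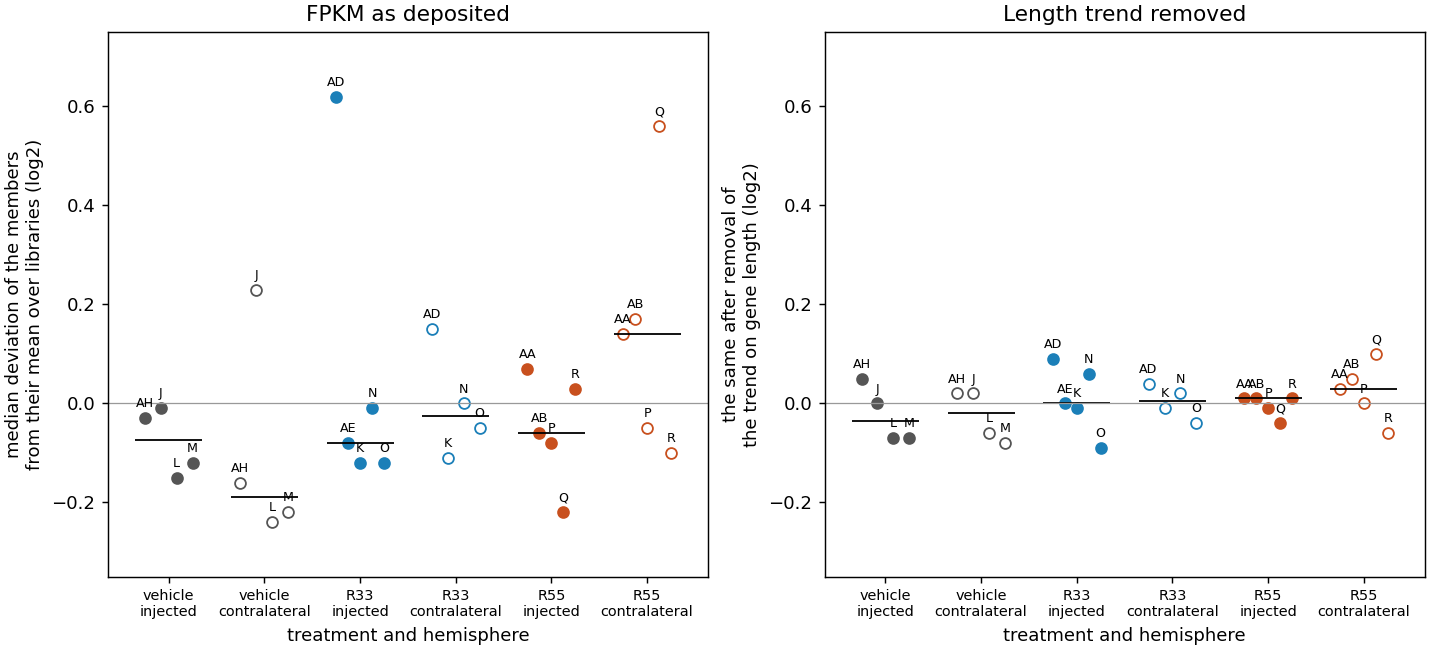
Median log2 deviation of the 85 tested members in each library (points with mouse labels; filled for injected, open for contralateral; bars at group medians), as deposited on the left and with the trend on gene length removed on the right. AD injected (0.62) and Q contralateral (0.56) stand above all others on the left, and at 0.09 and 0.10 they are also the highest on the right, where the next is 0.06.

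R55 against vehicle asks what the compound alters over both hemispheres. Values were mostly a little higher in R55 libraries: 84 of 85 members had a log2 fold change above 0 (98.8%, against 60.2% of all tested genes), with a median of 0.14 against 0.026 over all tested genes. By complex the medians were 0.13 (complex I), 0.15 (II), 0.15 (III), 0.13 (IV) and 0.15 (ATP synthase), and with the length trend removed 0.029, 0.058, 0.043, 0.019 and 0.052; differences between complexes were not tested. No member passed the test. With limma, and p adjusted by Benjamini-Hochberg for the 12976 genes in the test, 0 of 85 members were called at an adjusted p under 0.05 (0.00771% of all tested genes were), and the smallest adjusted p of a member was 0.559. At an unadjusted p under 0.05, 4 members were higher (4.71% of all tested genes were) and 0 lower (3.74% of all tested genes were), and limma voom on fragments gave 0 calls and 4 higher at that level (3.5% of all tested genes). Cell type markers had offsets in the same comparisons: the 5 astrocyte markers had medians of 0.13 for R55 and 0.13 for R33, and the 6 oligodendrocyte markers 0.125 and 0.255. Single markers, chosen after their values were seen, went both ways: Aldh1l1 had 0.383 and 0.315 and Alas2 0.552 and 0.388, while the astrocyte gene Slc1a2 had -0.184 and -0.161, and for R33 the mural gene Pdgfrb had -0.264 and the precursor gene Cspg4 -0.304, none of them called. The 7 neuron markers had -0.050 and 0.088 and the 5 endothelial markers -0.121 and -0.187, and the part of these markers in the members' values was not tested. Endothelial markers also differed by label series, with sums of 33.2 to 50 FPKM in 2-letter and 49.6 to 129 FPKM in 1-letter mice. AH is the only vehicle mouse with a 2-letter label, beside AD and AE for R33 and AA and AB for R55.

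Cox6a2 had the largest value. Its FPKM ran from 9.33 (lowest) over 11.9 (median) to 15.9 (highest) in vehicle libraries, from 9.80 over 16.9 to 20 after R55 and from 10.3 over 12.7 to 29.4 after R33. Of 10 R55 libraries, 6 were above the highest vehicle library and the others lay within the vehicle range. The log2 fold change was 0.38 (SE 0.17, unadjusted p = 0.0311, limma adjusted p = 0.571).

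The other 3 members at an unadjusted p under 0.05 were Sdhc, Ndufv1 and Ndufa9, and the share of members at that level, 4 of 85, is that of all tested genes. Sdhc, a membrane anchor of complex II, ran from 66.7 over 76.7 to 85.3 FPKM in vehicle and from 76.7 over 85.5 to 101 FPKM in R55 libraries, a log2 fold change of 0.19 (SE 0.084, unadjusted p = 0.0352). Ndufv1, which binds NADH in complex I, ran from 87.8 over 91.9 to 109 FPKM in vehicle and from 88.7 over 105 to 139 FPKM in R55 libraries, a log2 fold change of 0.18 (SE 0.082, unadjusted p = 0.0358). For both genes the R55 range starts inside the vehicle range, with 6 (Sdhc) and 4 (Ndufv1) of 10 R55 libraries above the highest vehicle library. Ndufa9, an accessory subunit of complex I, had 0.16 (SE 0.069, unadjusted p = 0.0274). It ran from 62.1 over 66.9 to 80.9 FPKM in vehicle and from 66 over 76.8 to 95.2 FPKM in R55 libraries. Of 10 R55 libraries, 1 was above the highest vehicle library.

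The 4 most abundant members had small positive values and broad overlap. Atp5b averaged 622 ± 49.6 FPKM in vehicle (SD, n = 4 mice) and 694 ± 52.3 FPKM in R55 mice (SD, n = 5), with a log2 fold change of 0.16 (SE 0.078), and Cox6a1 623 ± 47 and 669 ± 62.5 FPKM, with 0.093 (SE 0.12). Cox4i1, the main isoform of subunit 4, averaged 594 ± 67.6 and 658 ± 61.7 FPKM, with 0.14 (SE 0.11), and Cox8a 577 ± 35.1 and 630 ± 70.3 FPKM, with 0.12 (SE 0.12). In each of these genes the highest vehicle library was above the R55 median. At the low end of the order were Ndufv3 (0.066), Atp5h (0.049), Cox8b (0.023), Ndufa4l2 (0.0090) and Ndufs5-ps (-0.0010), and among the highest besides Cox6a2 were Cox6b2 (0.24), Atp5e (0.22), Uqcrh (0.21) and Atp5j (0.19).

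The offset moved with a few libraries and with gene length. Without the 2 libraries that stood apart, an alternative chosen after seeing the data, the median was 0.088 with 82 of 85 members above 0, and with the trend on length removed it was 0.041 with 68 above 0. In the injected hemisphere alone the median was 0.034. By complex, 25 of 38 (I), 4 of 4 (II), 7 of 8 (III), 13 of 18 (IV) and 14 of 17 (ATP synthase) were above 0 there. Of them 0 were at an unadjusted p under 0.05 (0.524% of all tested genes were higher at that level). The median was 0.24 in the contralateral alone, where 85 of 85 were above 0 and 9 at an unadjusted p under 0.05 (6.74% of all tested genes were higher at that level). Without vehicle mouse J, whose contralateral library was the highest vehicle library, it was 0.21, with 23 members at an unadjusted p under 0.05 (9.15% of all tested genes) and still 0 called, and without R33 mouse AD, which enters only the shared spread, 13 were (7.49% of all tested genes). Within the 1-letter mice the median was 0.11, and within the 2-letter mice, with 1 vehicle mouse, 0.17. With hemispheres of a mouse modelled as correlated (0.347), 0 members in place of 4 were higher at an unadjusted p under 0.05 (2.01% of all tested genes in place of 4.71%), with the median at 0.14.

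R33 against vehicle gave a like picture with less support from its own mice. The members' median log2 fold change was 0.13 (all tested genes 0.018), and 82 of 85 were above 0 (96.5%, against 57.5% of all tested genes). R33 and R55 were set against the same vehicle libraries, so the values of 1 comparison are no second sign of the other. By limma 0 members were called (0% of all tested genes were), the smallest adjusted p of a member was 0.834, and at an unadjusted p under 0.05 there were 0 higher (3.19% of all tested genes were) and 0 lower (2.68% were). Limma voom gave 0 calls and 3 higher at that level (2.85% of all tested genes).

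Mouse AD carried much of the R33 value. Without it the median was 0.027 with 63 members above 0, and without the 2 libraries that stood apart it was 0.050 with 78. Uqcrh is an example: in R33 mice it was 471, 247, 246, 245 and 242 FPKM injected (AD, N, AE, K, O) and 302, 261, 259 and 259 FPKM contralateral (AD, N, K, O), beside 268, 254, 222 and 212 FPKM (J, AH, M, L) and 339, 214, 208 and 184 FPKM (J, AH, M, L) in vehicle mice. AD lies above every vehicle library only on its injected side, and the other R33 libraries lie between the vehicle extremes, though all 9 R33 libraries are above the vehicle median. Its log2 fold change was 0.138 without the 2 libraries that stood apart and 0.108 within the 1-letter mice. Within the 1-letter mice, which leave AD out, the members' median was 0.016 with 52 above 0, and within the 2-letter mice 0.34 with 83 above 0, where there is 1 vehicle mouse. Without vehicle mouse J the median was 0.19, with 22 members higher at an unadjusted p under 0.05 (9.07% of all tested genes were), and with the length trend removed 0.042.

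By complex, the R33 medians were 0.12 (I), 0.13 (II), 0.13 (III), 0.16 (IV) and 0.13 (ATP synthase). The highest values were in complex IV isoforms of low abundance: 0.52 for Cox8b (SE 0.28), 0.38 for Cox6b2 (SE 0.19) and 0.24 for Cox6a2 (SE 0.17), followed by Uqcrh (0.24) and Atp5j (0.20). At the other end were Ndufs1 (0.052), Ndufa8 (0.050), Ndufs5-ps (-0.012), Cox4i2 (-0.054) and Ndufa4l2 (-0.14, SE 0.082). Ndufa4l2 ran from 2.90 over 3.27 to 4.45 FPKM in vehicle, from 2.26 over 2.90 to 3.47 FPKM after R33 and from 2.47 over 3.32 to 4.54 FPKM after R55. The 3 ranges overlap, and 4 of 9 R33 libraries were below the lowest vehicle library.

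**Figure D4:**
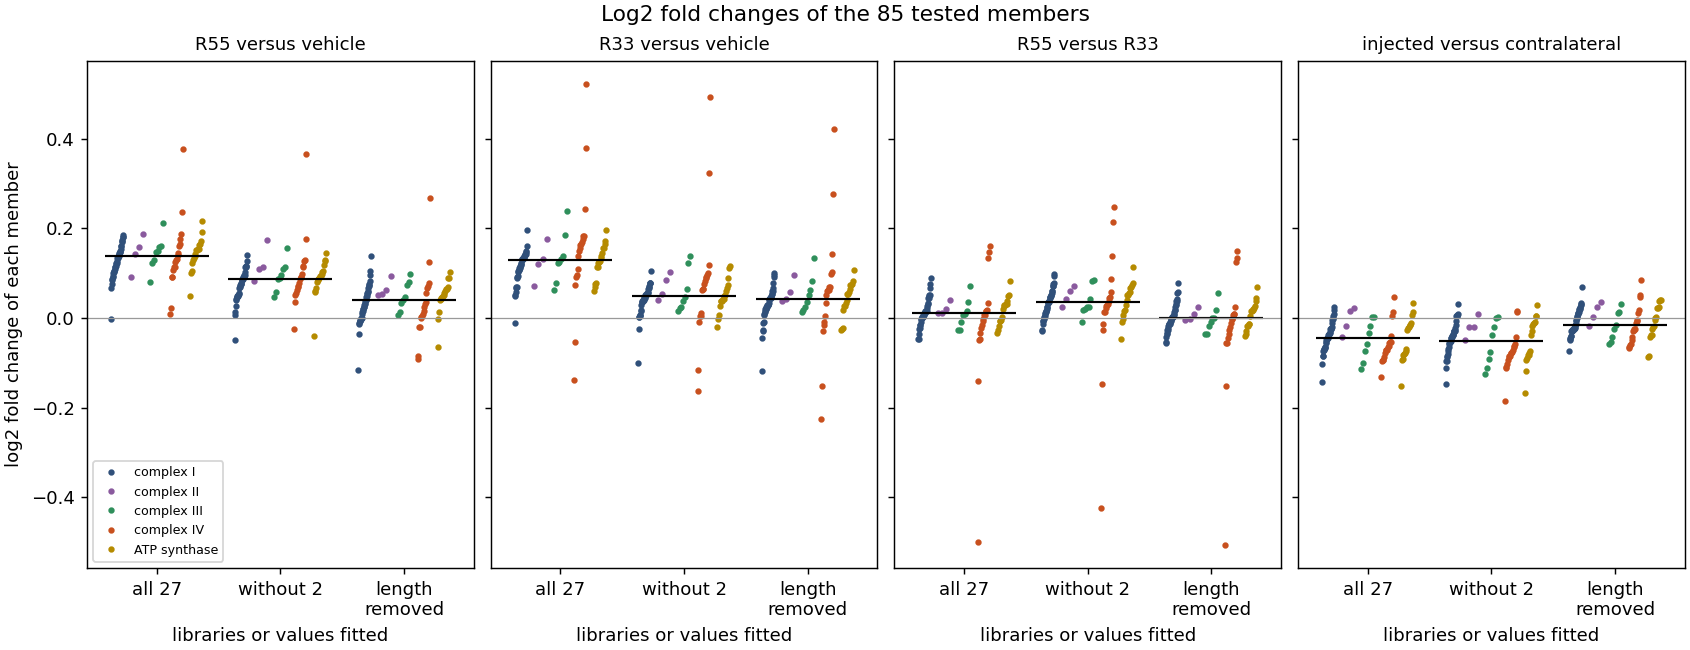
Log2 fold change of each of the 85 tested members (points, coloured by complex; black bars at the median) in 4 comparisons, fitted on all 27 libraries, without the 2 libraries of highest summed FPKM, and with the trend on gene length removed. For R55 and R33 against vehicle the medians go from 0.14 and 0.13 to 0.088 and 0.050 and to 0.041 and 0.042.

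Gene length ran through both drug comparisons. Over all tested genes the median log2 fold change for R55 was 0.066 under 500 bp, 0.116 from 500 to 1000 bp, 0.071 from 1500 to 2000 bp, 0.015 from 3000 to 5000 bp and -0.058 from 5000 bp on. Members of the same length classes sat higher, at 0.125 (15 members under 500 bp), 0.135 (40 members from 500 to 1000 bp) and 0.134 (11 members from 1500 to 2000 bp), and the 6 longest, from 2000 to 3000 bp, at 0.122 against 0.049 for all 2674 tested genes of that class. For R33 the values were 0.148 for members and 0.052 for all under 500 bp, and 0.085 and 0.036 from 2000 to 3000 bp. Over all genes the values thus peaked from 500 to 1000 bp and fell beyond. None of these differences between members and all genes of a class was tested.

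**Figure D5:**
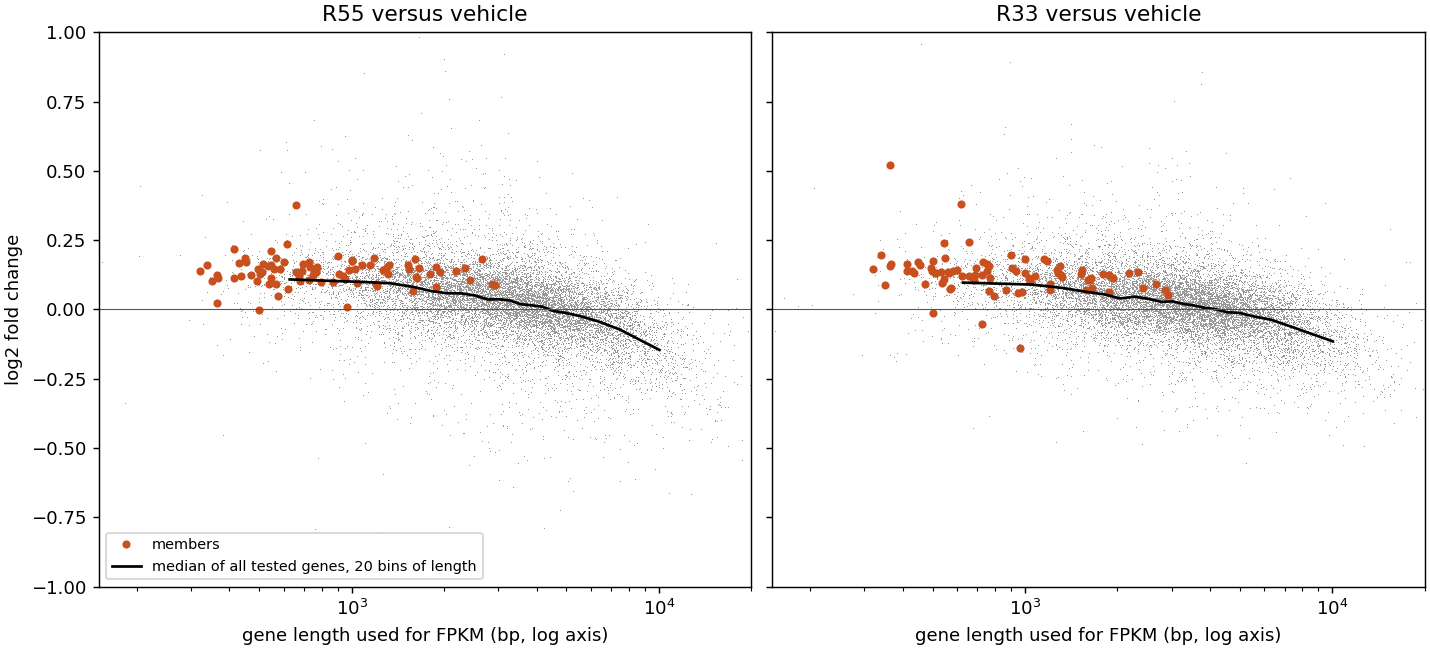
Log2 fold change against gene length (log axis) for R55 and R33 against vehicle, with all tested genes in grey, their median in bins of length as a black line and the 85 tested members in orange. The line, which starts above 500 bp, falls from about 0.1 to below 0 beyond 5000 bp, and most members lie around or above it; genes under 500 bp, with a lower median than the next class, are not shown apart.

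R55 against R33 asks whether the 2 compounds, given at the same concentration and time, differ. The members' median log2 fold change was 0.011 (all tested genes 0.0050), with 57 of 85 above 0 (67.1%, against 53.4% of all tested genes). By limma 0 members were called (0% of all tested genes were), with 0 at an unadjusted p under 0.05 by limma (0.732% of all tested genes were higher and 0.416% lower) and 0 by limma voom, and the adjusted p of every member was 1. The differences were therefore not resolved, which does not show that the compounds act alike: the 95% interval for Atp5b (0.030) ran from -0.12 to 0.19, and for Cox6a2 (0.13) from -0.20 to 0.46.

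The members that differed most were again low isoforms of complex IV. Cox8b had -0.50 (interval -1.03 to 0.04) and Cox6b2 -0.14 (interval -0.51 to 0.23), while Cox4i2 had 0.16 (interval -0.07 to 0.39) and Ndufa4l2 0.15 (interval -0.01 to 0.31). The members' median was -0.11 in the injected hemisphere alone and 0.14 in the contralateral alone, 0.098 within the 1-letter and -0.16 within the 2-letter mice, and 0.10 without mouse AD, with 8 members higher at an unadjusted p under 0.05 (6.35% of all tested genes were). Without the 2 libraries that stood apart it was 0.035, with 70 members above 0. Its sign thus turned with the libraries used.

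Cox8b is the member whose range least resembles the others. It was 4.15 FPKM in J contralateral, 3.27 in K contralateral, 3.26 in N injected and 2.90 in K injected, and from 0.0723 to 1.71 FPKM in the other 23 libraries. In those 4 libraries Ttr, the most abundant marker of choroid plexus, was 1109, 706, 1616 and 1047 FPKM, and the sum of the 3 choroid plexus markers Ttr, Folr1 and Kl was 1128, 713, 1646 and 1066 FPKM, against a median of 18.2 FPKM over all libraries. These are also the 4 libraries with the highest sums of these markers, while the skeletal muscle markers were 5.89, 7.86, 7.25 and 8.37 FPKM, within 5.06 to 14.7 FPKM. The comparison with Ttr was made after the values were seen, and its part in the Cox8b values was not tested. The median log2 fold change of the 3 markers was -0.61 for R55 and 0.61 for R33 against vehicle, and neither was called.

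Injected against contralateral compares the hemispheres over vehicle, R33 and R55 mice together. Injection itself and drug at the injected site are not separated in it. Members were slightly lower in the injected hemisphere, with a median log2 fold change of -0.045 (all tested genes 0.0010) and 15 of 85 above 0 (17.6%, against 50.7% of all tested genes). By limma 0 were called (0% of all tested genes were), the smallest adjusted p was 1, and 0 were at an unadjusted p under 0.05, also by limma voom (by limma 1.46% of all tested genes were higher and 2.01% lower). Among the highest values were Cox4i2 (0.047, SE 0.095) and the long core genes Atp5a1 (0.033, SE 0.047), Ndufs1 (0.024, SE 0.037) and Sdha (0.022, SE 0.045), and the short Atp5md (-0.15), Ndufb1 (-0.14), Cox8b (-0.13) and Uqcr11 (-0.12) were lowest. Single cell type markers, chosen after their values were seen, went both ways. Gfap had 0.539 (SE 0.240) and the neuronal Gad2 0.266 (SE 0.107). The mural gene Rgs5 had -0.271 (SE 0.138) and Slco1a4 -0.242 (SE 0.222). None of these markers was called, and their part in the members' values was not tested.

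The difference within a mouse ran both ways, and the sign of the fitted median turned when mouse Q was left out. By mouse, the members' median difference was -0.77 for Q (0 of 85 higher when injected), -0.24 for J and AB, -0.07 for O, -0.06 for AA, -0.02 for K and -0.01 for N and P, and 0.06 for L, 0.10 for M, 0.11 for AH, 0.13 for R and 0.47 for AD (85 of 85 higher). So 8 mice were lower and 5 higher when injected. Of the vehicle mice, in which the injection held no drug, L, M and AH were higher when injected and J lower. Without Q the median over members was 0.015 with 57 above 0, and without AD -0.078 with 4 above 0. Without the 2 libraries that stood apart it was -0.052, within the 1-letter mice -0.094 and within the 2-letter mice -0.0040. With mouse as a fixed block over the 13 mice with both hemispheres it was -0.040 with 16 above 0.

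Whether a compound's value differs between hemispheres was tested as an interaction. For R55 the injected-minus-contralateral difference had a median of -0.21 over the members (all tested genes -0.032), with 2 of 85 above 0 (2.35%, against 41.7% of all tested genes), and 0 members were called by limma (0% of all tested genes were; smallest adjusted p 0.999; 0 at an unadjusted p under 0.05, where 0.601% of all tested genes were higher and 1.24% lower). With correlation within mice modelled 2 members were lower at that level (3.69% of all tested genes). The median was -0.069 without mouse Q, -0.11 without the 2 libraries that stood apart and -0.039 with the length trend removed. Single cell type markers, chosen after their values were seen, had larger R55 values on both sides of 0. The oligodendrocyte genes Mobp and Cnp had -0.764 (SE 0.416) and -0.570 (SE 0.371) and Acta2 -0.892 (SE 0.369). The neuronal Slc17a7 had 0.285 (SE 0.187) and Slc1a2 0.309 (SE 0.522). None of these markers was called, and their part in the members' values was not tested. For R33 the median was 0.038 (all tested genes -0.012), with 58 of 85 above 0 (68.2%, against 45.6% of all tested genes), 0 called (0% of all tested genes were; smallest adjusted p 1; 0 at an unadjusted p under 0.05, where 0.0771% of all tested genes were higher and 0.301% lower), and it was -0.047 without mouse AD and -0.090 without those 2 libraries. The largest R33 value was 0.62 for Cox6b2 (SE 0.35), which was 2.17 to 5.46 FPKM injected and 2.17 to 3.37 FPKM contralateral in R33 mice. In vehicle mice it was 1.73 to 2.56 FPKM injected and 0.979 to 5 FPKM contralateral, the highest in mouse J. Limma voom was not run on the interactions.

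Other mitochondrial lists had medians above 0 but below those of the members, a difference that was not tested. Of 48 listed assembly factors of the complexes, 44 were tested, with medians of 0.082 for R55 (42 above 0) and 0.095 for R33 (39 above 0). The 17 citric acid cycle and pyruvate dehydrogenase genes had 0.081 and 0.068 (17 above 0 in each). Cyc1, a complex III subunit that the choice by symbol leaves out, and the electron carrier Cycs had 0.12 and 0.089 for R55. None was called in either comparison by limma or limma voom. Ndufaf2, an assembly factor of complex I, had the largest R55 value of its list, 0.27 (SE 0.093, unadjusted p = 0.00746, limma adjusted p = 0.545). At an unadjusted p under 0.05, limma gave 3 assembly factors and 2 cycle genes higher for R55 (4.71% of all tested genes) and 1 and 0 for R33 (3.19%).

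Listed regulators of mitochondrial gene expression had values on both sides of 0. Some of them, such as Tfam, act on mitochondrial DNA and not on the members. The list's difference from the members was not tested. Of 12, 6 were above 0 for R55 and 4 for R33, with medians of 0.0020 and -0.026, and 0 were called. Nrf1 (0.0090), Gabpa (-0.043), Yy1 (0.0080) and the coactivator Ppargc1a (-0.0030), whose motifs or partners were looked for above, were near 0 for R55, and Tfam, which packages mitochondrial DNA, had 0.085. Esrra, a nuclear receptor that activates respiratory genes, had 0.25 (SE 0.091, unadjusted p = 0.00977, limma adjusted p = 0.545) and Pprc1 -0.098 (SE 0.047, unadjusted p = 0.0484). Esrra was above the vehicle median in 10 of 10 R55 libraries and above the highest vehicle library in 4 of them, and R33 gave 0.14 (SE 0.094).

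Ribosomal protein and proteasome genes, listed for comparison, had medians above 0 as well. For R55 and R33 the medians were 0.13 and 0.12 for cytosolic ribosomal proteins (79 tested of 84), 0.11 and 0.091 for mitochondrial ribosomal proteins (78) and 0.13 and 0.10 for the proteasome core (20), with 0 called in each. Above 0 for R55 were 77, 77 and 20 of them. With the length trend removed the medians of these 3 lists were 0.029, 0.026 and 0.033 for R55, beside 0.041 for the members. The members' medians were thus at or above those of these lists, and no difference between lists was tested.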

How the data were processed

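Values are the FPKM deposited by the authors, who aligned reads with HISAT2 to GRCm39; the counting tool is not given in the sources used here. Of 32 libraries in the table, 27 are the vehicle, R33 and R55 libraries used here and 5 could not be placed in these groups and were not used. Fragments were recovered from FPKM and gene length, and 100% were whole within 0.01. Genes averaging 1 FPKM or more were fitted as log2(FPKM + 1) with limma 3.58.1 (R 4.3.3, statmod 1.5.0), with treatment and hemisphere as terms, a trend in the prior variance and Benjamini-Hochberg adjustment; hemisphere differences of each compound were interaction terms. Tables and figures used Python 3.11.15 with matplotlib 3.10.9, scipy 1.17.1, pandas 2.3.3 and numpy 2.4.6, and positions GENCODE mouse release M39. Hemispheres of a mouse are paired by its label: over 13 pairs the mean correlation of deviations was 0.394 (-0.0787 to 0.648). Members and lists were chosen with earlier results of these data known. Named members are those called, the 5 highest and 5 lowest log2 fold changes of each main comparison, the most abundant of each complex, listed core subunits, isoform pairs, members next to the expression minimum and, for the other lists, the gene of largest change; further genes named were chosen after their values were seen. Alternatives were a pseudocount of 0.1, no filter, at least 10 fragments in every library, median-of-ratios scaling, limma voom on fragments, lowess trends (span 0.3) on length or on GC content (known for 97.8% of tested genes) removed, mice as blocks, 1 value per mouse, subsets of libraries, label series as a covariate and each mouse left out. Fits without the 2 libraries of highest summed FPKM were chosen after seeing the data.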

Additional observations from a re-analysis of the deposited data

Results flagged for a closer look

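In 9 of 90 groups of 4 or 5 libraries tested, the highest library lay far from the others relative to the range of its group; chance flags about 1 in 20 groups, and many of these values come from the same library. In the injected hemisphere of R33 mouse AD these were the members' median deviation (0.62), the members' share of fragments (1.66%), Cox6a1 (1078 FPKM), Ndufb9 (409 FPKM), Uqcrh (471 FPKM) and Cox7a1 (7.23 FPKM). In its contralateral hemisphere Uqcrh was picked out (302 FPKM). In the contralateral hemisphere of vehicle mouse J the members' median deviation (0.23) and Cox8b (4.15 FPKM) were. The cause was not tested.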

How the results depend on the processing

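No member was called under any alternative: 34 for each treatment comparison, 29 for injected against contralateral and 17 for each interaction. The smallest limma adjusted p of a member over these was 0.194 for R55 and 0.237 for R33 against vehicle, 0.436 for R55 against R33 and 0.408 for the hemispheres. The members' median kept its sign in 34 of 34 alternatives for R55 against vehicle (0.032 to 0.24) and for R33 against vehicle (0.0020 to 0.34), in 25 of 34 for R55 against R33 (-0.16 to 0.14) and in 28 of 29 for the hemispheres (-0.094 to 0.015). Among the treatment comparisons it moved by more than the spread between mice (SD 0.156) in 1 alternative, the mice with 2-letter labels only: to 0.343 for R33 against vehicle and -0.158 for R55 against R33. That fit has 1 vehicle mouse, and the cause was not tested. With the length trend removed the R55 interaction went from -0.209 to -0.039, a move inside the spread of within-mouse differences (SD 0.278).

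With each mouse left out in turn, the medians ran from 0.102 to 0.206 (R55 against vehicle), 0.027 to 0.186 (R33 against vehicle), -0.035 to 0.104 (R55 against R33), -0.078 to 0.015 (hemispheres), -0.297 to -0.069 (R55 interaction) and -0.047 to 0.074 (R33 interaction), with 0 members called throughout.

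With the hemispheres of each mouse paired as a replicate block, the medians were 0.138, 0.125, 0.015 and -0.042 for the 4 comparisons in that order, and no call of a member was altered.

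Limits: there are 4 or 5 mice per group, and the treatment comparisons in the text count the hemispheres of a mouse as separate libraries. Low isoforms rest on few fragments, with 1 fragment for Cox8b in its lowest library. RNA levels in cortex blocks do not give respiration or protein, and cell types cannot be separated.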
